A study of Mus musculus with 5 samples.

Results

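Solute carriers are membrane proteins that move small molecules and ions across the plasma membrane and the membranes of organelles. Transcripts of this superfamily were examined in tissue that contained the pharyngeal arches of wild-type mouse embryos. Members were all genes with a symbol of the form Slc, family number, a, member number, measured by a probe set annotated to that gene alone. Slc2a1, Slc2a3, Slc4a1, Slc7a4 and Slc25a1 were left out. This gave 234 genes with 365 probe sets, of 12393 genes with 20380 probe sets on the array, and they belonged to 48 numbered families. They were sorted by family number into 12 substrate groups, so a gene whose substrate differs from that of its family stayed with the family.

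The study profiled 1 group of 5 samples, all wild type, collected at E10.5 from mice of strain 129P2/OlaHsd after 2 generations of backcrossing to C57BL/6. Each sample was a separate tissue isolate that per the labels held the second heart field, and 10 ng of its total RNA was amplified, labelled with biotin and hybridised to an Affymetrix Mouse Genome 430A array. The labels do not say whether isolates came from separate litters, so p-values measure only the spread between these samples, which may be partly technical. There is no second condition, and the comparisons are of each gene with the background of its array and of the 5 samples with each other.

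A gene was called above background when its log2 signal exceeded a background level of the array by limma's one-sided test with Benjamini-Hochberg adjustment over all 12393 genes. The level was a signal of 17.5, 15.9, 18.01, 20.4 and 22.6 in replicates 1 to 5. It was the 95th percentile over 168 probe sets of gene families not expected in this tissue, such as olfactory receptors and keratin-associated proteins. The excess is the mean log2 signal minus the level, given with its SE. Signals are in the scaled units of the arrays, as mean ± SD over 5 samples unless single samples are given. A signal depends on how well its own probes bind, so signals of different genes do not rank their RNA levels. Sample values and their order are those of the brightest probe set of a gene, and other probe sets of the same gene can order the samples differently. In tissue measured whole, fewer cells of a type and less RNA per cell cannot be told apart.

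The median signal over all probe sets lay between 28.1 and 32.2 on the 5 arrays, and Pearson's r of log2 signal between arrays, across the 6757 called genes, ran from 0.9501 to 0.978. Genes are not independent replicates. Of 16 measured markers of the arches and second heart field, 11 were above background, among them Isl1 (1387 ± 223) and Prrx1 (1063 ± 216). Tbx1, Dlx5, Hand2, Eya1 and Nkx2-5 were not called. Of markers of other cells, 11 of 12 were called for neurons, 7 of 10 for endothelium, 4 of 10 for red blood cells and 2 of 10 for yolk sac and liver endoderm, beside 54.5% of all genes. None of 6 markers of adult kidney and intestine was called (limma), and none of those 6 had a mean above the level.

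A dividing cell imports amino acids, sugars, metals and phosphate and exports lactate. Inside the cell, mitochondrial carriers pass nucleotides, phosphate and metabolites through the inner mitochondrial membrane, and other carriers load the Golgi with nucleotide sugars and zinc. Many other solute carriers are used by adult epithelia of kidney, gut and liver or by synapses.

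Of the 234 genes, 80 (34.2%) were above background, against 6757 of all 12393 genes (54.5%). The median excess was -0.44 log2 units over the solute carrier genes and 0.91 over all genes. On all 5 arrays, 81 members (34.6%) lay above the level, against 53.0% of all genes, and 83 members (35.5%) lay above it on no array, against 25.4% of all genes. Among the 154 members that were not called, 22 had a mean above the level. The only member above the level on all 5 arrays without a call was Slc41a1. Called members had a median signal of 90.4, and their means ran from 30.6 to 3583. At a higher level, for which casein kinase and interferon receptor genes were kept among the background families, 19 members (8.12%) were called, against 21.9% of all genes. That level was a signal of 135 to 197 on the 5 arrays. Those genes do not belong to families unexpected in this tissue, so a gene under that level may still be above background.

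**Figure D1:**
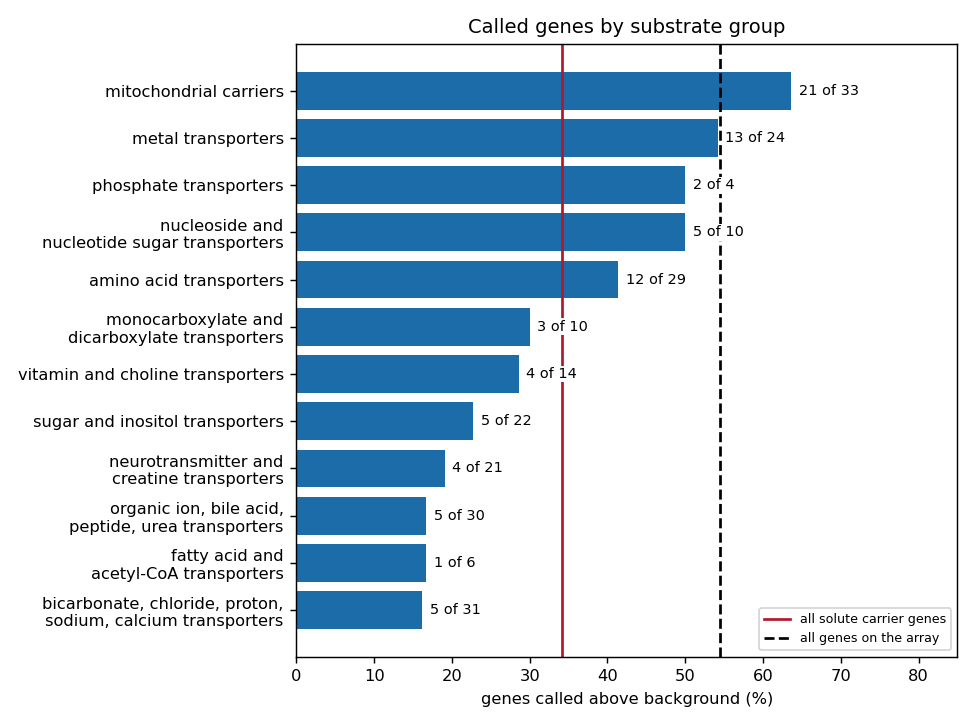
Share of genes called above background in each substrate group (bars, percent of the measured genes of the group, with counts), beside the share over all 234 solute carrier genes (34.2%, solid line) and over all 12393 genes (54.5%, dashed line). Mitochondrial carriers stand highest with 21 of 33, and the group of bicarbonate, chloride, proton, sodium and calcium transporters lowest with 5 of 31.

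The groups ranged from 63.6% called among mitochondrial carriers to 16.1% among transporters of bicarbonate, chloride, protons, sodium and calcium. Mitochondrial carriers were the only group with a share above the 54.5% of all genes, and metal transporters (13 of 24, 54.2%) lay just under it. The 3 genes of family Slc41, which carries magnesium, were counted with the ion transporters and not with the metals. None of them was called, so the metal share would be lower with them and the ion share higher without them. The shares were not tested against each other. Each gene was read from the brightest of its probe sets, so more probe sets give more chances of a call. The 33 mitochondrial carriers had 65 probe sets, the 24 metal transporters 36 and all 234 members 365. The part of this in the shares was not tested. The median excess was 1.09 log2 units for mitochondrial carriers and 0.84 for metal transporters. It was -1.37 for neurotransmitter and creatine transporters, of which 4 of 21 were called.

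**Figure D2:**
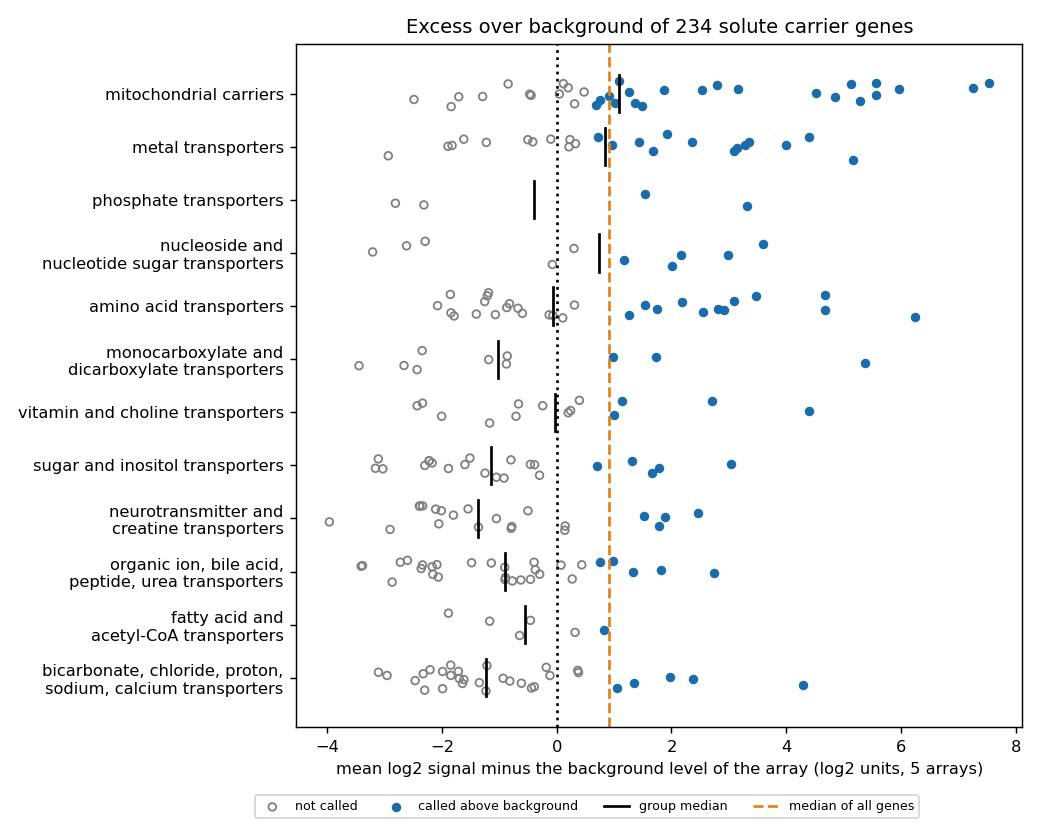
Excess of each of the 234 solute carrier genes over the background level (x axis, log2 units, mean of 5 arrays), by substrate group (y axis); filled points were called, open points were not, and bars mark group medians. The dashed line is the median of all genes (0.91), and the dotted line is the background level; called mitochondrial carriers reach an excess of 7.54.

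The promoter sequences of the members, which the rule did not use, were searched for 11 letter sets chosen after the calls were seen, and no test was run. RefSeq windows of 250 bases before to 50 after the annotated start (GRCm38.p6) were held for 182 of the 234 members, 61 of them called. A GC box (GGGCGG, either strand) lay in the window of 53 called members (86.9%) and of 67 of 121 uncalled members (55.4%). The share was 72.3% for all called genes of the array and 61.1% for all its genes. The E-box CACGTG, a letter sequence that Myc and other factors recognise, lay in 15 called members (24.6%) and in 13 uncalled members (10.7%), against 12.2% of all called genes and 10.8% of all genes.

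The other 9 letter sets are given for called members, uncalled members, all called genes and all genes in that order. A CCAAT box (CCAAT) lay in 41.0%, 43.8%, 44.3% and 42.3%. TATAAA lay in 11.5%, 14.0%, 8.56% and 11.9%. The C/EBP-ATF element TGATGNAAN, a letter sequence bound by the amino acid stress factor ATF4, lay in 3.28%, 4.13%, 2.60% and 3.11%, and among called members only in Slc1a4 and Slc50a1. Its stricter form TGATGCAAN lay in 3.28%, 2.48%, 0.687% and 0.840%, which for the called members is 2 windows. The NRF1 site lay in 8.20%, 4.96%, 13.8% and 9.36%. The letters TGCNCNC, a loose form of the metal response core with any base at each N, lay in 63.9%, 60.3%, 64.9% and 62.4%. Matches to it can include letters that are not that core. The longer form TGCACNCGG lay in 1.64%, 0.826%, 1.25% and 1.11%. The sterol response element TCACNCCAC lay in 0 of 61 called members, 1.65% of uncalled members, 1.32% of all called genes and 1.498% of all genes. The ERR-type element TCAAGGTCA lay in 0 of 61 called and 0 of 121 uncalled members, beside 0.289% and 0.344%. Both strands were searched, overlaps between motifs were allowed, and a match is a description of the letters. Over all 32851 windows the shares were 35.7% for GGGCGG, 7.15% for CACGTG, 37.4% for CCAAT, 13.6% for TATAAA, 3.95% for TGATGNAAN, 0.889% for TGATGCAAN, 4.60% for the NRF1 site, 51.0% for TGCNCNC, 0.709% for TGCACNCGG, 1.24% for TCACNCCAC and 0.423% for TCAAGGTCA.

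The windows of 4 called members with high signals are shown on the strand of the gene, with 1 match each in capitals. Slc1a4 (chr11:20332664-20332963, minus strand) has the C/EBP-ATF element on the opposite strand, beginning at position -5 from the start. Slc16a1 (chr3:104638414-104638713, plus strand) has the E-box at -200. Slc25a4 (chr8:46211013-46211312, minus strand) has a GC box at 28, past the start, and Slc25a5 (chrX:36795347-36795646, plus strand) has one on the opposite strand at -14.
Slc1a4: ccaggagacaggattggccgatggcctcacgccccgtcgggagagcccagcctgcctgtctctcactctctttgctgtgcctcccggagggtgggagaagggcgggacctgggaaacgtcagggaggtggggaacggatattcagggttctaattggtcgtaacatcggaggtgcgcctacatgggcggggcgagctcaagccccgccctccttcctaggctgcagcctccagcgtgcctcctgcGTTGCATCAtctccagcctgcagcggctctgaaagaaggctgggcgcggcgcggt
Slc16a1: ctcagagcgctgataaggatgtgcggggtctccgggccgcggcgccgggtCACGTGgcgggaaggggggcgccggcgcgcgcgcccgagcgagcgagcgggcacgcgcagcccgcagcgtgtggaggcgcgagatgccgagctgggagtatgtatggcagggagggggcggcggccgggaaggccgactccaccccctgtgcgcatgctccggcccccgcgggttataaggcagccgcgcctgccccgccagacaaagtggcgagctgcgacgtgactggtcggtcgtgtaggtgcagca
Slc25a4: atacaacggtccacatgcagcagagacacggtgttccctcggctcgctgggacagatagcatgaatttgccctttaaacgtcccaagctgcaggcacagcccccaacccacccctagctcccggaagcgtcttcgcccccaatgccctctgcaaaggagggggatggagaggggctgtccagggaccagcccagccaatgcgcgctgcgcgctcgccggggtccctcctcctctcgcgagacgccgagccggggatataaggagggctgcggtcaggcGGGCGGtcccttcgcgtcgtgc
Slc25a5: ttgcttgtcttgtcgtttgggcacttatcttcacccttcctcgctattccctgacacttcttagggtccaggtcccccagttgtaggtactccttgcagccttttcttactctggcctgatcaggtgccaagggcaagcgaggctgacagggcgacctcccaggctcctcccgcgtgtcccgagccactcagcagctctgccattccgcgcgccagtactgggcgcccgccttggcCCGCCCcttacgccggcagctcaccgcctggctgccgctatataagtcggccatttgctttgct

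Of 33 mitochondrial carriers, 21 were called and 9 were also called at the higher level. The ADP/ATP carriers Slc25a5 and Slc25a4, which exchange ATP made in the matrix for ADP from the cytosol, gave the highest signals of all members. Slc25a5 gave 2469, 3181, 3385, 4686 and 4195 in replicates 1 to 5 (excess 7.54 ± 0.11), with the lowest value in replicate 1 and the highest in replicate 4. Slc25a4 gave 2504, 2680, 2697, 2988 and 3481 (excess 7.25 ± 0.11). The order of the samples differed between probe sets: 4 of the 8 of Slc25a5 were lowest in replicate 1 and 4 in replicate 2, and the bright ones of Slc25a4 were lowest in replicate 1, 2 or 4. All 8 probe sets of Slc25a5 had means above the level. Of the 4 probe sets of Slc25a4, the only one with a plain _at name gave 19.8 ± 6.25, close to the level, while the other 3 gave 801 ± 221 to 2870 ± 383. Near-identical carriers can share probes, so the split of signal between these genes is uncertain.

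Carriers of phosphate, nucleotides and cofactors followed. Slc25a3, which brings phosphate into the matrix, gave 897.7 ± 118 (excess 5.57 ± 0.13). Slc25a36, a pyrimidine nucleotide carrier, gave 1199 ± 256, and its 779 in replicate 4 stood below 1198 to 1417 in the other samples. Its second probe set was lowest in replicate 1 (72.3) and gave 98.3 in replicate 4. Slc25a51, the NAD carrier, gave 744 ± 167. Slc25a46, an outer membrane protein of mitochondrial fission and fusion, gave 903 ± 183. These 4 genes were above the higher level as well.

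Carriers of fuel and amino acid metabolism were also called. Slc25a20, which takes acylcarnitines to fatty acid oxidation, gave 537, 553, 601, 528 and 496 (excess 4.85 ± 0.14). The highest value was 1.21-fold the lowest, against a median of 1.72-fold over the called members. Its other probe set spread more widely, from 21.0 in replicate 4 to 39.0 in replicate 3. Slc25a13, an aspartate and glutamate carrier of the malate-aspartate shuttle, gave 440.0 ± 98.5. Slc25a44, a carrier of branched-chain amino acids, gave 133 ± 26.0. Slc25a14, of the uncoupling protein family, gave 510, 417, 630, 962 and 944, so replicates 4 and 5 lay above the other 3. Slc25a39, needed for glutathione import into mitochondria, gave 357, 273, 113, 89.4 and 132, with replicates 1 and 2 above the other 3. Another of its 3 probe sets showed the same split, while the dimmest was highest in replicate 5.

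Slc25a37, the iron importer that red cell precursors use for heme synthesis, gave 40.1, 64.3, 51.4, 43.4 and 46.9 (excess 1.37 ± 0.20, adjusted p = 3.39e-07, limma). Its paralog Slc25a28, found in most cells, gave 36.2, 34.5, 40.5, 39.8 and 38.8. Neither was called at the higher level. In the same samples the summed signal of 10 measured red cell markers ran from 10488 in replicate 4 to 19035 in replicate 5. The globins Hbb-y, Hbb-bh1 and Hba-x and the transferrin receptor Tfrc were called, while Alas2, Klf1, Gata1, Epor, Ank1 and Epb42 were not called. The part of red cells in the signal of Slc25a37 was not tested. Slc25a30 passed with 38.1 ± 15.7 through 1 of its 5 probe sets.

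**Figure D3:**
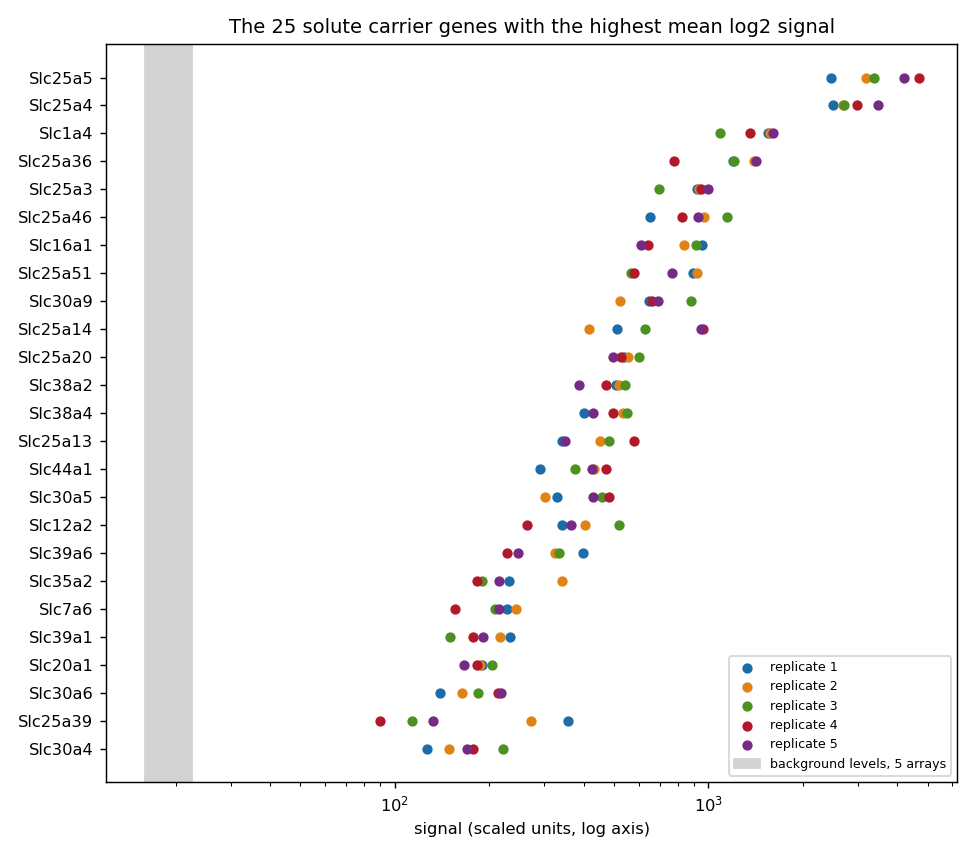
Signal in each of the 5 samples (points, x axis, scaled units, log axis) for the 25 solute carrier genes with the highest mean log2 signal. The grey band spans the background levels of the 5 arrays (15.9 to 22.6); all points lie above it, from Slc30a4 at the bottom to Slc25a5 at the top, and 10 of the 25 genes are mitochondrial carriers.

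Of 29 amino acid transporters, 12 were called, with a median excess of -0.07 log2 units over all 29. Slc1a4, an exchanger of alanine, serine and cysteine, gave 1553, 1578, 1088, 1362 and 1605 (excess 6.25 ± 0.13), with replicate 3 lowest. This signal came from 1 of its 3 probe sets. The other 2 gave 15.4 ± 9.17 and 15.3 ± 9.39, under the level, so the call rests on a single probe set. The sodium-coupled transporters Slc38a2 (484 ± 60.5) and Slc38a4 (482 ± 65.3, from an imprinted gene) import small neutral amino acids. Both were called at the higher level too.

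Heteromeric transporters pair a heavy chain of family Slc3 with a light chain of family Slc7. The heavy chain gene Slc3a2 gave 135, 144, 87.8, 123 and 77.2 (excess 2.55 ± 0.19). Its light chain Slc7a5, which takes up leucine and other large neutral amino acids, gave 95.9, 74.2, 55.0, 39.2 and 31.8 (excess 1.54 ± 0.24). Both were lowest in replicate 5, and no correlation was computed over 5 samples. Another light chain, Slc7a6, gave 211 ± 33.5. Of 12 measured genes of family Slc7, Slc7a5 and Slc7a6 were the only ones called. Slc3a1, the heavy chain known from kidney and gut, gave 45.4 ± 5.34 and was called too.

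Slc1a3 and Slc1a2, glutamate transporters known from glia and neural progenitors, were above background. Slc1a3 gave 153, 138, 218, 135 and 164 (excess 3.08 ± 0.17), highest in replicate 3, through 1 of its 3 probe sets. Slc1a2 gave 41.9, 82.6, 73.9, 62.5 and 61.2 (excess 1.74 ± 0.19). Among the remaining called genes, Slc38a10 gave 91.4 ± 37.9, with the means of 5 of its 7 probe sets above the level.

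Metal transporters, counted without the magnesium carriers of family Slc41, gave 13 called genes of 24 (54.2%, beside 54.5% of all genes). Like all 80 called members of the superfamily, these lay above the level on all 5 arrays. Zinc transporters of family Slc30, most of which move zinc out of the cell or from the cytosol into organelles, gave 5 of 8. Slc30a9 gave 646, 524, 882, 660 and 689 (excess 5.16 ± 0.14), with replicate 3 highest. Slc30a5 gave 400 ± 79.7 and its partner Slc30a6 gave 184 ± 33.3; the pair loads zinc into the early secretory pathway. Slc30a4 gave 169 ± 35.5. Slc30a1, the plasma membrane exporter that responds to zinc, gave 7.35 ± 4.76 and lay above the level on no array.

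Zinc importers of family Slc39 gave 7 of 10. Slc39a6 gave 398, 325, 335, 229 and 248, with replicates 4 and 5 lowest, while its second probe set was highest in replicate 4 (44.5). Slc39a1 gave 194 ± 32.6, and Slc39a8, which also carries manganese, gave 61.9 ± 19.2. Slc31a1, the copper importer, gave 161 ± 25.8. The iron transporters were near the level. Slc40a1, the iron exporter ferroportin, gave 31.1, 22.5, 36.8, 13.2 and 21.2, above the level on 3 arrays, and was not called (adjusted p = 0.213, limma). Without replicate 4 it was (adjusted p = 0.0365, limma). Slc11a2, which imports iron from endosomes and gut lumen, gave 22.6 ± 7.42 and lay above the level on 2 arrays.

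In the families grouped as sugar and inositol transporters, 5 of 22 genes were called, with a median excess of -1.15 log2 units. The group holds all of family Slc5, in which Slc5a5 carries iodide, Slc5a6 vitamins, Slc5a7 choline and Slc5a8 monocarboxylates. None of these 4 had a mean above the level, and without them 5 of 18 were called. The called genes included Slc37a3 (157 ± 36.2) and Slc37a4 (61.3 ± 16.9), of which Slc37a4 is the glucose 6-phosphate transporter of the endoplasmic reticulum. Slc2a4, the insulin-regulated glucose transporter of muscle and fat, gave 44.2, 38.1, 42.9, 65.2 and 46.2 (excess 1.31 ± 0.19). Its other probe set gave 14.0 ± 8.84, with a mean under the level. With its probe sets averaged the excess was 0.28 and the call was lost (adjusted p = 0.265, limma). Slc5a2, the sodium-glucose cotransporter known from the kidney tubule, gave 71.2, 47.5, 50.6, 84.5 and 78.0 (excess 1.79 ± 0.18), and both its probe sets had means above the level. Neither was called at the higher level. The intestinal Slc5a1 gave 15.3 ± 8.66 and was not called.

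Of 10 transporters of monocarboxylates and dicarboxylates, 3 were called, all in family Slc16, which carries lactate and pyruvate with protons. Slc16a1 gave 956, 835, 913, 641 and 609.6 (excess 5.37 ± 0.16), with replicates 4 and 5 under the other 3. Slc16a3, the lactate exporter of glycolytic cells, gave 41.9, 110, 30.6, 92.7 and 70.2 (excess 1.73 ± 0.23), so its samples spanned 3.60-fold. Slc16a7 gave 37.8 ± 8.67.

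Of 4 phosphate transporters, 2 were called. Slc20a1, the sodium-phosphate transporter found in most cells, gave 190.2, 187, 205, 183 and 166 (excess 3.31 ± 0.16), and the highest value was 1.24-fold the lowest. Its other probe set spread more widely, from 21.7 in replicate 1 to 53.0 in replicate 3. Slc20a2 gave 55.1 ± 9.81. The renal Slc34a1 gave 7.70 ± 8.63 and lay above the level on no array. Of 10 nucleoside and nucleotide sugar transporters, 5 were called. Of these, 4 belong to family Slc35, which loads the Golgi, such as Slc35a2 for UDP-galactose (232 ± 64.6), Slc35a5 (151 ± 31.1) and Slc35a1 for CMP-sialic acid (89.5 ± 31.7). By the symbol rule, only Slc35 genes with the letter a were members. Slc29a3, a nucleoside transporter of lysosomes, gave 72.0, 80.3, 70.0, 80.4 and 74.0. Its other probe set gave 8.41 ± 9.19, with a mean under the level. With its probe sets averaged the call was lost (adjusted p = 0.780, limma).

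Vitamin and choline transporters gave 4 called genes of 14, or 4 of 16 with Slc5a6 and Slc5a7. Slc44a1, a choline transporter that feeds phosphatidylcholine synthesis, gave 291, 433, 375, 472 and 427 (excess 4.39 ± 0.15), with replicate 1 lowest. Its second probe set gave 5.87 ± 5.57. Slc44a2 gave 125 ± 32.4. The folate transporter Slc19a1 gave 43.4 ± 14.4 and the thiamine transporter Slc19a2 gave 37.6 ± 3.70. Slc33a1, which takes acetyl-CoA into the endoplasmic reticulum, gave 33.9 ± 7.32 and was the only called gene of 6 for fatty acids and acetyl-CoA.

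Ion transporters, among them the 3 uncalled genes of family Slc41, gave 5 called genes of 31. Slc12a2, the cotransporter that brings sodium, potassium and chloride into cells, gave 341, 404, 517, 265 and 365 (excess 4.30 ± 0.17), highest in replicate 3 and lowest in replicate 4. All 3 of its probe sets had means above the level, but the other 2 were lowest in replicates 1 and 5. Slc12a7, a potassium-chloride exporter, gave 98.5 ± 12.4, while its other probe set gave 7.22 ± 6.67, with a mean under the level. Slc26a2, the sulfate transporter that cartilage matrix depends on, gave 73.9 ± 8.10. Its other probe set gave 6.78 ± 4.71, also with a mean under the level. With probe sets averaged, the calls of Slc12a7 and Slc26a2 were lost. Slc4a2, a chloride-bicarbonate exchanger, gave 64.7, 78.0, 21.5, 55.3 and 40.0, lowest in replicate 3. The kidney cotransporters Slc12a1 (6.36 ± 5.28) and Slc12a3 (5.46 ± 4.48) lay above the level on no array.

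In the families grouped as neurotransmitter and creatine transporters, 4 of 21 genes were called, and not every member of these families carries a neurotransmitter. Slc6a6 for taurine gave 108 ± 32.3 through 1 of its 3 probe sets, Slc6a9 for glycine gave 72.7 ± 24.4 and Slc6a8 for creatine gave 67.0 ± 17.7. Slc17a6, which loads glutamate into synaptic vesicles, gave 36.6, 44.5, 93.6, 44.8 and 64.6 (excess 1.51 ± 0.20), highest in replicate 3 and lowest in replicate 1. Neuron markers were called for 11 of 12 genes, with Syt1 the exception, and their summed signal was highest in replicate 3 (7621) and lowest in replicate 4 (4061). Their part in the signal of Slc17a6 was not tested.

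Slc32a1, the vesicular transporter of inhibitory transmitters, gave 20.8 ± 3.10 and lay above the level on 4 arrays, but was not called (adjusted p = 0.511, limma). The plasma membrane transporters for dopamine (Slc6a3, 10.6 ± 5.85), serotonin (Slc6a4, 5.57 ± 3.32) and glycine (Slc6a5, 5.11 ± 3.93) lay above the level on no array, as did the vesicular acetylcholine transporter Slc18a3 (7.38 ± 6.69). Slc12a5, the neuronal chloride exporter, passed with 28.2, 39.3, 41.6, 46.6 and 40.4 (excess 1.05 ± 0.20). Its call came from 1 of 2 probe sets.

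Transporters of organic ions, bile acids, peptides and urea gave 5 called genes of 30, and 16 of the 30 lay above the level on no array. Slc22a23 gave 72.0 ± 32.4 and Slc22a17 gave 48.1 ± 10.7. The lysosomal Slc15a4, which moves histidine and peptides, gave 37.7 ± 9.39. The hepatic bile acid importer Slc10a1 gave 10.1, 13.5, 10.8, 67.5 and 30.3 and was not called (adjusted p = 0.691, limma). The renal anion transporter Slc22a6 gave 15.2 ± 5.50. For yolk sac and liver endoderm, 2 of 10 markers (Ttr and Apoa2) were called, and the summed signal of the 10 ran from 191 in replicate 4 to 1146 in replicate 5. Slc10a1 was highest in replicate 4. The part of these cells in its signal was not tested.

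**Figure D4:**
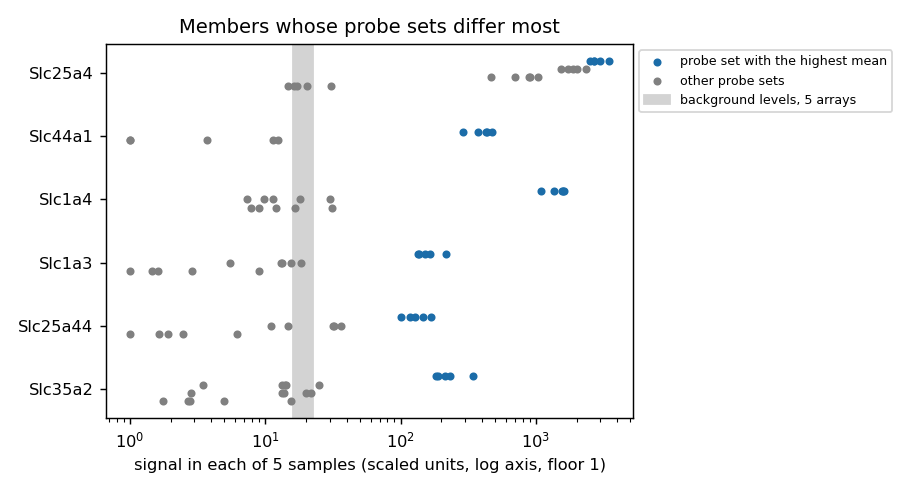
Signals of every probe set in each of the 5 samples (x axis, scaled units, log axis, with values under 1 drawn at 1) for the 6 members whose probe sets differ most; each row of points at a gene is a probe set, and the one with the highest mean log2 signal is coloured. The grey band spans the background levels of the 5 arrays. In Slc44a1, Slc1a4, Slc1a3 and Slc35a2 a single probe set has a mean above the level, while Slc25a4 has 4 of 4.

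Probe sets of the same member often differed. Of the 80 called members, 45 had 2 or more probe sets, and in 26 of these at least 1 probe set had a mean under the level. Their mean log2 signals were farthest apart in Slc25a4 (7.22 log2 units), Slc44a1 (6.82), Slc1a4 (6.73), Slc1a3 (6.13), Slc25a44 (5.91) and Slc35a2 (5.83). For Slc35a2, 1 of 4 probe sets had a mean above the level. With the mean over all probe sets of a gene in place of the highest, 58 members (24.8%) were called, against 48.5% of all genes.

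The 5 samples were then compared with each other. The variance of each gene was set against limma's trend of variance on signal by an F test, over the 7470 genes with a mean above the level. No member passed after adjustment (0 of 102), and 7 of all 7470 genes did (0.0937%). At an unadjusted p under 0.05 there were 7 members (6.86%), beside 413 of all genes (5.53%), and without limma's trend and robust options 8 members did so, beside 319 of all genes. The median SD over the samples was 0.31 log2 units for the 80 called members and 0.30 for all called genes.

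**Figure D5:**
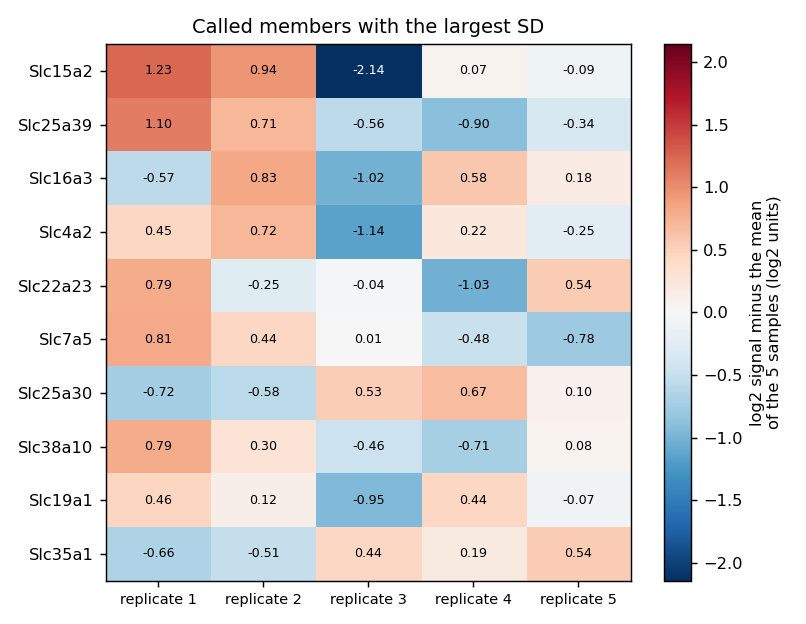
Log2 signal of the 10 called solute carrier genes with the largest SD, as the difference from the mean of the 5 samples (colour and printed value, log2 units), with samples as columns. Slc15a2 is 2.14 below its mean in replicate 3 (-2.14) and 1.23 above it in replicate 1, and the genes do not share 1 lowest sample.

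Slc15a2, a proton-coupled importer of dipeptides and tripeptides, varied most. It gave 295, 242, 28.5, 132 and 118 in replicates 1 to 5, so replicate 3 lay near the level and the highest value was 10.3-fold the lowest. Its variance was 17.1 times the trend (adjusted p = 0.0761, F test against limma's trend). It passed the same test without replicate 1, 2 or 4 (15.5, 15.6 and 24.0 times, adjusted p = 0.0448, 0.0178 and 0.0493). It did not pass without replicate 3 (4.73 times, adjusted p = 0.939) or replicate 5 (23.2 times, adjusted p = 0.167). Its second probe set had a mean under the level, and the average of both varied by 2.74 times the trend (adjusted p = 0.965). Slc25a39 followed with 7.75 times the trend (adjusted p = 0.496).

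The samples with low or high values differed from member to member. Replicate 3 held the lowest value of Slc15a2, Slc16a3, Slc4a2 and Slc19a1, replicate 4 that of Slc25a39, Slc22a23 and Slc38a10, replicate 5 that of Slc7a5, and replicate 1 that of Slc25a30 and Slc35a1. Over the 80 called members, replicate 1 held the lowest value for 21 and replicate 5 for 12. The median difference from the mean of the samples ran only from 0.01 to 0.06 log2 units across the 5 samples for the called members, and from -0.02 to 0.04 for all called genes. Among 13 called metal transporters that median was -0.17 in replicate 1, -0.15 in replicate 2 and 0.16 in replicate 3. For the 12 called amino acid transporters it was 0.10, 0.18 and 0.07 in the same samples, and -0.08 and -0.10 in replicates 4 and 5.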

How the data were processed

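Gene expression was measured on 5 Affymetrix arrays, 1 per sample. The deposited values were intensity values, 1 linear signal per probe set and array. GCOS is the software named in the submitters' processing notes; version and settings are not given in the sources used here. A 2% trimmed mean was 150.1 on every array, so the deposited values carry a scaling per array. Probe sets were named through the platform annotation, updated through Entrez identifiers with a RefSeq table. Of 22626 probe sets without controls, 20380 had 1 gene, 691 several and 1555 none; 3 probe sets of solute carriers with several genes were not used. All 365 member probe sets matched.

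Values under 1 were set to 1 before log2 was taken. Each gene was read from the brightest of its probe sets by mean log2 signal. Detection used an intercept fit (lmFit, eBayes with trend and robust) in limma 3.58.1 (R 4.3.3), and variation between samples an F test against limma's trend; both were adjusted by Benjamini-Hochberg over all genes tested, with a threshold of 0.05. The level is taken as known. It came from 143 genes (olfactory, vomeronasal and taste receptors, keratin-associated proteins, defensins, interferons, caseins, antigen receptor segments). Its higher alternative added 31 probe sets of 11 casein kinase and interferon receptor genes. Detection and variance steps were run on simulated data. For detection, all genes without an added excess were held under the level, so false calls of genes at the level were not examined. The members, substrate groups and marker lists were chosen with earlier results of these data known; the promoter motifs were chosen after member calls were seen, and all 11 letter sets tried are reported. Named were the 25 members with the highest signals, up to 4 called per group, the 10 most variable, the 6 with the most discordant probe sets, a list of well-known carriers, and those with 1 sample far from the others. Alternatives were another level, normalization, floor, probe set rule, filter or limma option and leaving out each replicate. Only 5 arrays limit the precision.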

Additional observations from a re-analysis of the deposited data

Results flagged for a closer look

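In 3 members, of 94 examined, 1 sample stood far from the other 4 by Dixon's test on log2 signals, in which chance flags about 1 in 20 groups. The gap to the nearest sample took 0.796 of the range in Slc19a2, a thiamine transporter, with 31.1 in replicate 4 and 38.2 to 40.3 elsewhere. In Slc25a3, the mitochondrial phosphate carrier, it took 0.766, with 694 in replicate 3 and 917 to 998 elsewhere. In Slc25a36, a pyrimidine nucleotide carrier, it took 0.720, with 779 in replicate 4 and 1198 to 1417 elsewhere; its second probe set was lowest in replicate 1.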

How the results depend on the processing

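The count of called members was 80. It was 80 under quantile normalization (54.6% of all genes called) and 84 with a floor at 16 (56.4%). Without limma's trend and robust options it was 80 (54.2%). The rule of all 5 arrays, chosen after seeing the data, gave 81 (53.0%). With dim genes left out, 80 of 80 members and 6541 of all 6543 genes were called. That filter left almost no uncalled gene to test, so its count does not bear on the calls. The count of called members was 80 to 82 without 1 replicate. It was 68 with either the 99th percentile (48.5% of all genes called) or the array median as background, 64 of the 204 members (31.4%) that have a plain probe set, against 50.8% of all genes with one, and 58 when probe sets were averaged. At the higher level it was 19, and 2718 of all genes were called; over the replicates left out, all genes called ran from 6639 to 6783. At that level 6 called genes among those named lost the call while above it, and 35 lay under it, with an excess in log2 units of Slc12a5 -2.06, Slc12a7 -0.73, Slc15a2 -0.36, Slc15a4 -2.13, Slc16a3 -1.38, Slc16a7 -2.13, Slc17a6 -1.59, Slc19a1 -1.98, Slc19a2 -2.11, Slc1a2 -1.36, Slc1a3 -0.026, Slc20a2 -1.57, Slc22a17 -1.78, Slc22a23 -1.30, Slc25a30 -2.19, Slc25a37 -1.74, Slc25a44 -0.31, Slc26a2 -1.14, Slc29a3 -1.10, Slc2a4 -1.80, Slc33a1 -2.28, Slc35a1 -0.93, Slc35a5 -0.13, Slc37a3 -0.068, Slc37a4 -1.45, Slc38a10 -0.92, Slc39a8 -1.44, Slc3a2 -0.55, Slc44a2 -0.40, Slc4a2 -1.77, Slc5a2 -1.32, Slc6a6 -0.64, Slc6a8 -1.32, Slc6a9 -1.23 and Slc7a5 -1.56. When all probe sets of a gene were averaged the excess was negative in Slc12a5 -1.36, Slc19a2 -0.64, Slc1a3 -0.19, Slc25a30 -1.31, Slc25a44 -0.013, Slc39a8 -0.21, Slc6a6 -0.27 and Slc6a9 -0.037. The call was also lost in 9 other named genes: Slc12a7, Slc15a2, Slc19a1, Slc26a2, Slc29a3, Slc2a4, Slc35a2, Slc35a5 and Slc6a8. With plain probe sets alone the excess was negative in Slc1a4 -0.47, Slc25a30 -0.59 and Slc6a6 -1.34, and Slc25a4 lost the call (0.03). The substrate groups with a share above that of all genes numbered 1. They numbered 3 with the 99th percentile or the array median, 2 with the floor at 16, averaged probe sets or plain probe sets, 1 to 2 without 1 replicate, and 12 with dim genes left out, where nearly every gene tested was called. Members past the variance test numbered 0, and 1, Slc15a2, with the floor at 16 or plain probe sets, and 0 to 1 without 1 replicate. All genes past it numbered 7, and 18 with the floor at 16, 12 with plain probe sets, 0 without trend and robust options (319 at an unadjusted p under 0.05), and 4 to 14 without 1 replicate. Without replicate 4, Slc40a1 was called (0.56). The cause of these changes was not tested. Dim probe sets lie near the level, so a gene not called may still be transcribed. No paired analysis was possible because all samples belong to 1 group.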
